A study of Mus musculus with 6 samples.

Results

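Semaphorins and plexins are the ligands and receptors of a guidance system first described in growing axons and also used by blood vessels. The genes described here are the 32 genes of the count table whose symbols name a semaphorin of class 3 to 7, a plexin of group A to D, the co-receptor Nrp2, or one of the plexin domain proteins Plxdc1 and Plxdc2. There were 20 semaphorins, 9 plexins and these 3 others, and all 32 reached the minimum of 10 reads summed over the libraries, out of 20021 genes that did so and 32285 genes in the table. The rule for them uses names only, but it was set with earlier results of these data known.

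Retinal RNA from wild-type C57BL/6J mice was sequenced at postnatal day (PN) 18 in 3 OIR-CIH and 3 OIR-Norm libraries, from 3 eyes per group. All pups had lived with their mothers in 75% O2 for 5 days from PN8, which removes the central retinal capillaries and is known as oxygen-induced retinopathy (OIR). From PN13, OIR-CIH pups underwent chronic intermittent hypoxia (CIH), with 266 daily cycles of 135 s in which O2 fell from 20.95% to 5%, over 10 h of each day. OIR-Norm pups had the same gas flow and noise without a change in O2. Each library held Xist RNA (298 to 1650 CPM, which are read counts scaled to the same library total) and RNA of Y-linked genes (57.3 to 184 CPM summed over 4 genes), and how many animals a library holds is not known. The labels do not say that libraries came from separate animals, so the p-values measure the spread between libraries, part of which may be technical.

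Secreted class 3 semaphorins mostly act through a complex of a plexin with neuropilin 1 or 2, with Sema3e as the exception that binds plexin D1 directly. Classes 4 to 6 span the membrane and bind plexins without neuropilin, and Sema7a is tethered by a lipid anchor and binds plexin C1 and beta 1 integrin. Plexins carry an intracellular domain that acts on small GTPases and, through them, on the cytoskeleton and on integrin adhesion, and in the developing retina they direct ganglion cell axons, inner plexiform layering and the path of new vessels.

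Sema7a rose in OIR-CIH and was the one gene of the 32 with an adjusted p under 0.05. Sema3c was higher in the mean and Plxnd1, Sema3e and Plxna2 were lower, but none of these 4 passed the correction over all genes. The other 27 genes had an unadjusted p of 0.0647 or more, and 25 of the 32 log2 fold changes lay within 0.25 of 0. Log2 fold changes are OIR-CIH over OIR-Norm throughout, from edgeR's quasi-likelihood test with Benjamini-Hochberg adjustment over all 20021 genes.

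The starts of the genes with the 3 lowest p are shown because the results turn on these genes, and because the letters that the hypoxia-inducible factors bind, ACGTG or GCGTG, can be looked for in them. Each run covers 250 bases before and 50 after the RefSeq start on GRCm38.p6, read 5′ to 3′ on the strand of the gene. Capitals mark ACGTG or GCGTG on the printed strand, and in Sema3e the whole palindrome CACGTG, which holds ACGTG on both strands. The windows are chr9:57939862-57940161 (+) for Sema7a, chr6:115994956-115995255 (-) for Plxnd1 and chr5:14025026-14025325 (+) for Sema3e.
Sema7a: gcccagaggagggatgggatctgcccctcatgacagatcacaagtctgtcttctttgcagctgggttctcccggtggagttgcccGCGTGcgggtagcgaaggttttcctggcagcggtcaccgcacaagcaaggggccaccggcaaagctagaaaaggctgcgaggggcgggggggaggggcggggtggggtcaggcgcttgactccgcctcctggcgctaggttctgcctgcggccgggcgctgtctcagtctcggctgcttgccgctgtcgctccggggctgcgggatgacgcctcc
Plxnd1: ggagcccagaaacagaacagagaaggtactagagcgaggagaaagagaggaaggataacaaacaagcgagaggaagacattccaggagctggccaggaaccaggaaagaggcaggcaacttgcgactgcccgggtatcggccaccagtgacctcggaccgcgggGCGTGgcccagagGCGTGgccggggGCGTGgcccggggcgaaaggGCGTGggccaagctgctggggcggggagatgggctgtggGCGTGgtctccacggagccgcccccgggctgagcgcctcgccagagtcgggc
Sema3e: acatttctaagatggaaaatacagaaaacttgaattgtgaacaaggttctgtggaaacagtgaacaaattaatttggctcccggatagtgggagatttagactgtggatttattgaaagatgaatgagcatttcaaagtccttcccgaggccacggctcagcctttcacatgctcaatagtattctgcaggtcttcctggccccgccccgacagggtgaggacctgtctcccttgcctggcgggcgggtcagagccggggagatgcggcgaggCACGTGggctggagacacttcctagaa
On both strands, the Sema7a window held 1 match and the Plxnd1 window 5, all of them GCGTG, and the Sema3e window held 2, both ACGTG. Of all 32851 RefSeq windows of the same 300 bases, 43.8% held at least 1 such match, 20.6% at least 2 and 1.66% at least 5. These shares take no account of base composition. The Plxnd1 window was 67.0% G and C, against a median of 52.7% over all windows. For 25 of the 32 genes RefSeq windows were found, 36 in all since some genes have several starts, and 19 of the 36 windows held a match. The E-box CACGTG lay in 3 of the 36 windows (1 each of Sema3e, Sema4b and Sema6d), against 7.15% of all windows, and TATAAA in 0, against 13.6%. The AP-1 letters TGANTCA lay in 3 of the 36, against 7.81%. These matches describe letters in a window and say nothing of binding.

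Sema7a (ENSMUSG00000038264, chromosome 9, 57940112 to 57962865, plus strand) was at 118, 103 and 104 CPM in the 3 OIR-CIH libraries and at 81.1, 79.8 and 69.6 CPM in the 3 OIR-Norm libraries, in order of replicate. CPM throughout were adjusted by trimmed-mean (TMM) factors of edgeR. All OIR-CIH values lay above all OIR-Norm values, with means of 109 ± 8.34 and 76.8 ± 6.31 CPM (SD, n = 3 each), a difference of 41.3%. The log2 fold change was 0.50 (standard error 0.08, 95% interval 0.32 to 0.68) with an adjusted p of 0.0194 from edgeR, rank 49 among all genes tested. Unrounded it was 0.499 in this edgeR fit, just under the fold minimum of 0.5, so this fit did not call it by both criteria. With the filter lowered to a total of 1 count it was 0.501 and was called. The 2 criteria are those of the study, whose own call of this gene is not reported here. By exact permutation of the 6 libraries (two-sided) p was 0.1, and no arrangement of 3 against 3 can give less. The adjusted p rose to 0.121 without OIR-CIH replicate 1 and to 0.056 without OIR-Norm replicate 3, with log2 fold changes of 0.43 in both fits, and lay between 0.0277 and 0.0475 in the other 4. In bulk retina, a change in the number of cells of a type and a change in RNA per cell cannot be told apart.

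**Figure D1:**
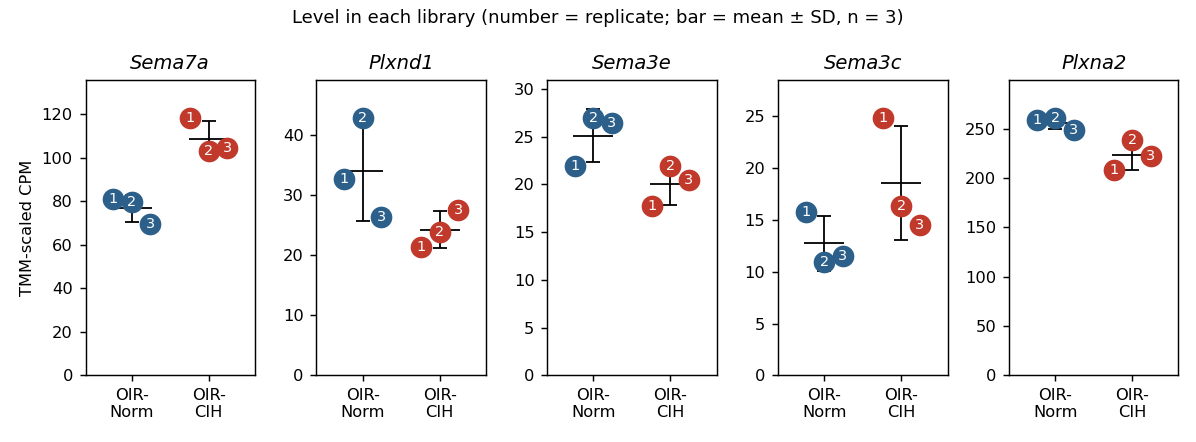
TMM-scaled CPM (vertical axis, from 0) of the 5 genes with an unadjusted p under 0.05 in each OIR-Norm (blue) and OIR-CIH (red) library, numbered by replicate, with bars for the mean ± SD of n = 3. The groups are apart for Sema7a and Plxna2, while Plxnd1, Sema3e and Sema3c overlap.

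Against the whole table, the 32 genes did not stand out by count. By both criteria (adjusted p under 0.05 and a log2 fold change beyond 0.5) 0 of them were called by edgeR, DESeq2 and limma, where edgeR called 0.315% of all genes, 63 in number (0.0999% higher and 0.215% lower). By adjusted p alone 1 was called, against 0.39% of all genes and 0.135% in the same direction. An unadjusted p under 0.05 was found for 5 genes or 15.6%, 2 higher and 3 lower, close to the 13.2% of all genes (6.2% higher and 7.01% lower) and the 15.5% of genes with a mean of at least 1 CPM. The groups did not overlap for 4 genes or 12.5% (Sema7a, Sema3g and Sema6b higher, Plxna2 lower), against 18.4% of all genes (9.12% higher and 9.26% lower) and 20.2% of those with at least 1 CPM, and 2 of these, Sema3g and Sema6b, overlapped when CPM was taken on plain library totals.

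The fold changes centred on 0. The median log2 fold change was -0.0085 over the 32 genes and -0.0028 over all genes, with 15 above 0 and 17 below. It ran from -0.084 to 0.038 as single libraries were left out. For 24 genes the 95% interval lay within 0.5 of 0 in both directions, so for these a larger difference lay outside the interval. The typical coefficient of variation between libraries of a group (the median over the genes) was 9.67% in OIR-CIH and 9.21% in OIR-Norm. Apart from Plxnb3, which had 4 to 18 reads per library, each gene had between 56 and 8400 reads in every library.

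**Figure D2:**
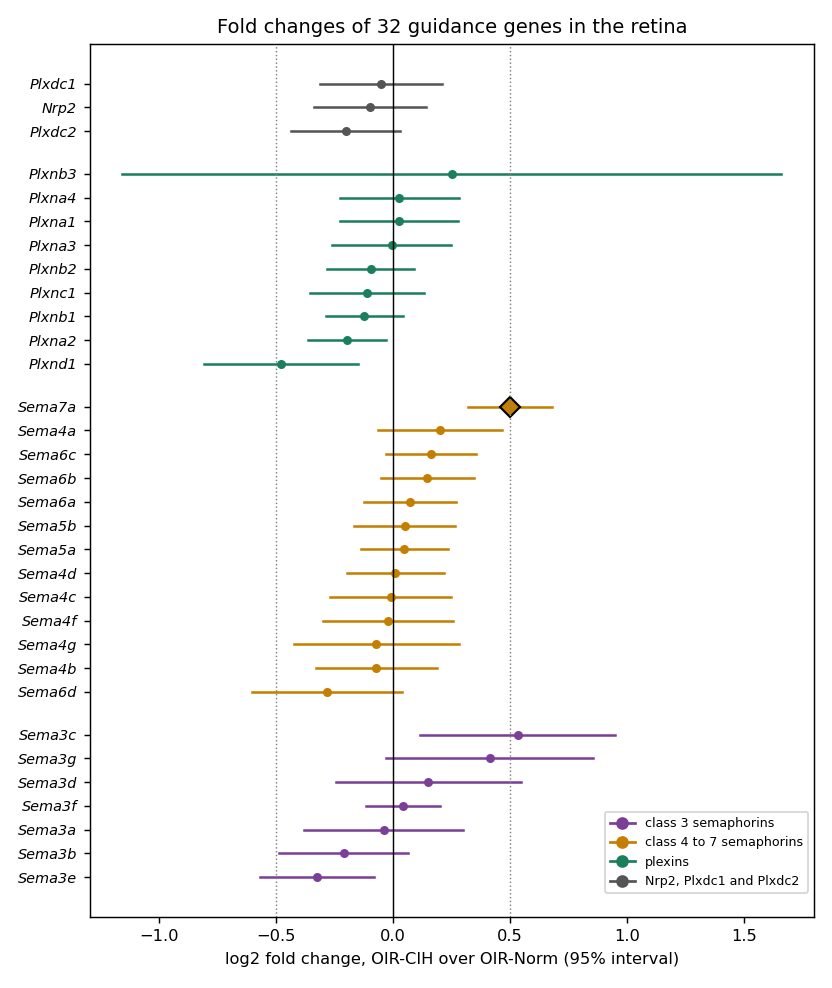
Log2 fold change of each of the 32 genes (horizontal axis, OIR-CIH over OIR-Norm) with its 95% interval from edgeR, grouped by role, with dotted lines at -0.5 and 0.5. The diamond marks Sema7a, the gene with an adjusted p under 0.05, and most of the other points lie within 0.25 of 0 with intervals that include 0.

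Among the 7 secreted class 3 ligands, 4 had a log2 fold change above 0 and 3 below, with a median of 0.04 and a range from -0.33 to 0.53. Sema3e (ENSMUSG00000063531), the plexin D1 ligand that repels endothelial sprouts, was at 17.7, 21.9 and 20.4 CPM in OIR-CIH and 21.9, 26.9 and 26.5 CPM in OIR-Norm. OIR-CIH replicate 2 was level with OIR-Norm replicate 1 and the other libraries were apart. The log2 fold change was -0.33 (standard error 0.11, 95% interval -0.57 to -0.08, unadjusted p = 0.0132 and adjusted p = 0.283 from edgeR), and the unadjusted p was 0.0656 without OIR-CIH replicate 1.

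Sema3c (ENSMUSG00000028780), a ligand of neuropilins and plexin D1, was at 24.8, 16.3 and 14.5 CPM in OIR-CIH and 15.8, 10.9 and 11.6 CPM in OIR-Norm. Replicate 1 was the highest of its group on both sides, and OIR-CIH replicate 3 was below OIR-Norm replicate 1. The log2 fold change was 0.53 (standard error 0.19, 95% interval 0.12 to 0.95, unadjusted p = 0.0164 and adjusted p = 0.291 from edgeR). Without OIR-CIH replicate 1 it was 0.27 with an unadjusted p of 0.137, and the unadjusted p was 0.059 and 0.0527 without OIR-Norm replicates 2 and 3.

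Sema3f, which signals through neuropilin 2, was the most abundant class 3 ligand and nearly equal in the groups. It was at 179, 164 and 168 CPM in OIR-CIH and 171, 168 and 158 CPM in OIR-Norm. The ranges overlapped, and the log2 fold change was 0.04 with a 95% interval from -0.12 to 0.20. Sema3g, a ligand made by endothelial cells, was at 4.04 ± 0.306 CPM in OIR-CIH and 3.04 ± 0.818 CPM in OIR-Norm (SD, n = 3 each), a log2 fold change of 0.41 with a 95% interval from -0.03 to 0.86, and of 0.20 without OIR-Norm replicate 3. Sema3a, the classic growth cone repellent that binds neuropilin 1, differed by -0.04 (95% interval -0.38 to 0.30), while Sema3b and Sema3d differed by -0.21 (-0.048 without OIR-Norm replicate 1) and 0.15 with intervals that included 0. Sema3d, Sema3a, Sema3e and Sema3c lie in that order on the plus strand of chromosome 5 between 12383385 and 17730268 (GRCm38, GENCODE M21), and their log2 fold changes in the same order were 0.15, -0.04, -0.33 and 0.53.

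Of the 13 membrane-bound ligands of classes 4 to 7, 8 had a log2 fold change above 0 and 5 below, between -0.28 and 0.50 with a median of 0.05. Besides Sema7a, the largest values were those of Sema4a, 0.20 (95% interval -0.07 to 0.47), and Sema6d, -0.28 (95% interval -0.61 to 0.04). Sema6d is a ligand of plexin A1. Neither passed the test, with adjusted p of 0.518 and 0.446 from edgeR. Without OIR-Norm replicate 2 Sema6d was at -0.10 and Sema4a at 0.31, and without OIR-Norm replicate 3 Sema4a was at 0.086. Sema6b was the third gene whose OIR-CIH libraries were all higher, at 27.5 ± 2.40 against 24.9 ± 0.260 CPM (SD, n = 3 each), a log2 fold change of 0.15 with a 95% interval from -0.05 to 0.34, and of 0.071 without OIR-CIH replicate 3. Sema5a and Sema5b, transmembrane ligands that hold neurites to the inner plexiform layer, differed by 0.05 each, with intervals from -0.14 to 0.23 and from -0.17 to 0.26. Sema4d, the ligand of plexin B1, differed by 0.01 (95% interval -0.20 to 0.22). Sema4g varied most within the groups among these ligands in OIR-CIH and in OIR-Norm, with coefficients of variation of 21.2% and 24.3%.

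Of the 9 plexins, 3 had a log2 fold change above 0 and 6 below, and their median was -0.10. Plxnd1 (ENSMUSG00000030123, chromosome 6, 115954811 to 115995005, minus strand), the endothelial receptor for Sema3e, was at 21.3, 23.8 and 27.5 CPM in OIR-CIH and at 32.6, 42.7 and 26.4 CPM in OIR-Norm. OIR-Norm replicate 2 was the highest, and OIR-CIH replicate 3 lay above OIR-Norm replicate 3. The means were 24.2 ± 3.08 and 33.9 ± 8.25 CPM (SD, n = 3 each). The log2 fold change was -0.48 (standard error 0.15, 95% interval -0.81 to -0.15, unadjusted p = 0.00758 and adjusted p = 0.247 from edgeR). Without OIR-Norm replicate 2 it was -0.28, with an unadjusted p of 0.0426 and an adjusted p of 0.56.

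Plxna2 (ENSMUSG00000026640, chromosome 1), a receptor for class 6 semaphorins in the inner retina, was at 209, 238 and 222 CPM in OIR-CIH and 259, 261 and 249 CPM in OIR-Norm. Every OIR-CIH library was below every OIR-Norm library. The log2 fold change was -0.20 (standard error 0.08, 95% interval -0.37 to -0.03, unadjusted p = 0.0242 and adjusted p = 0.317 from edgeR), a difference of -12.8% between means of 223 ± 14.8 and 256 ± 6.39 CPM (SD over the libraries of a group). The unadjusted p was 0.0912 without OIR-CIH replicate 1, 0.0505 without OIR-CIH replicate 3 and 0.0525 without OIR-Norm replicate 2.

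Plxnb1, the Sema4d receptor, was at 135, 158 and 148 CPM in OIR-CIH and 162, 161 and 157 CPM in OIR-Norm, and Plxnb2, a receptor for class 4 semaphorins, at 137, 136 and 148 against 159, 159 and 132 CPM. Both pairs of ranges overlapped, and the log2 fold changes were -0.12 and -0.10 with adjusted p of 0.517 and 0.676 from edgeR, and ranged from -0.18 to -0.069 and from -0.18 to -0.054 with single libraries left out. Plxnc1, the plexin receptor of Sema7a, stood at 27.4 ± 4.26 CPM in OIR-CIH and 29.7 ± 1.93 CPM in OIR-Norm (SD, n = 3 each), a log2 fold change of -0.11 with a 95% interval from -0.35 to 0.13, and of -0.014 without OIR-CIH replicate 1 and -0.24 without OIR-CIH replicate 3. Plxna1, Plxna3 and Plxna4, which pair with neuropilins or bind class 6 ligands, differed by 0.03, -0.01 and 0.03, with intervals of at most -0.26 to 0.28. For Plxnb3 the depth limited the comparison, with a 95% interval from -1.16 to 1.66.

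All 3 remaining genes were slightly lower in the mean without passing the test. Nrp2, the neuropilin of Sema3f, was at 26.6 ± 3.90 CPM in OIR-CIH and 28.5 ± 1.51 CPM in OIR-Norm (SD, n = 3 each), a log2 fold change of -0.10. Plxdc1 and Plxdc2, membrane proteins named for a domain shared with plexins, differed by -0.05 and -0.20, with intervals from -0.31 to 0.21 and from -0.44 to 0.03, and Plxdc2 was at -0.13 without OIR-CIH replicate 1 and at -0.31 without OIR-CIH replicate 3. Nrp1, the neuropilin of Sema3a and a co-receptor for VEGF, is not among the 32 genes and was at 13.6, 13.1 and 16.8 CPM in OIR-CIH and 16.2, 19.3 and 15.3 CPM in OIR-Norm. Its ranges overlapped, and the log2 fold change was -0.22 (adjusted p = 0.507 from edgeR), going to -0.11 without OIR-Norm replicate 2 and to -0.34 without OIR-CIH replicate 3.

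Levels can be ordered between genes only per length. Divided by exon length, Sema3f had the highest level, 32.3 CPM per kilobase (range over the 6 libraries 30.4 to 34.5), followed by Sema7a at 28.1 (21.1 to 35.8), Plxnb2 at 18.8 (17.1 to 20.6), Plxnb1 at 16.0 (14.1 to 16.9) and Plxna2 at 13.9 (12.2 to 15.2). Sema4g, a class 4 ligand, came next at 9.32. The lowest were Sema3g (0.780), Sema3a (0.777), Sema3d (0.273) and Plxnb3 (0.0426 CPM per kilobase). Most neighbours in this order overlapped. In 6 of the 31 neighbouring pairs the ranges over the 6 libraries did not overlap, namely Sema7a over Plxnb2, Plxnb2 over Plxnb1, Plxdc1 over Sema4f, Sema6d over Sema3g, Sema3a over Sema3d and Sema3d over Plxnb3. Compared within each library, the upper gene was above the lower one in all 6 in these pairs and in 4 more (Plxnb1 over Plxna2, Plxna2 over Sema4g, Sema6c over Sema6a and Plxna3 over Sema3e), 10 in all. Per kilobase, Sema7a was above Sema3f in OIR-CIH replicate 1 (35.8 against 34.5), just below it in the other OIR-CIH libraries (31.3 against 31.5 and 31.7 against 32.4) and well below it in every OIR-Norm library.

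**Figure D3:**
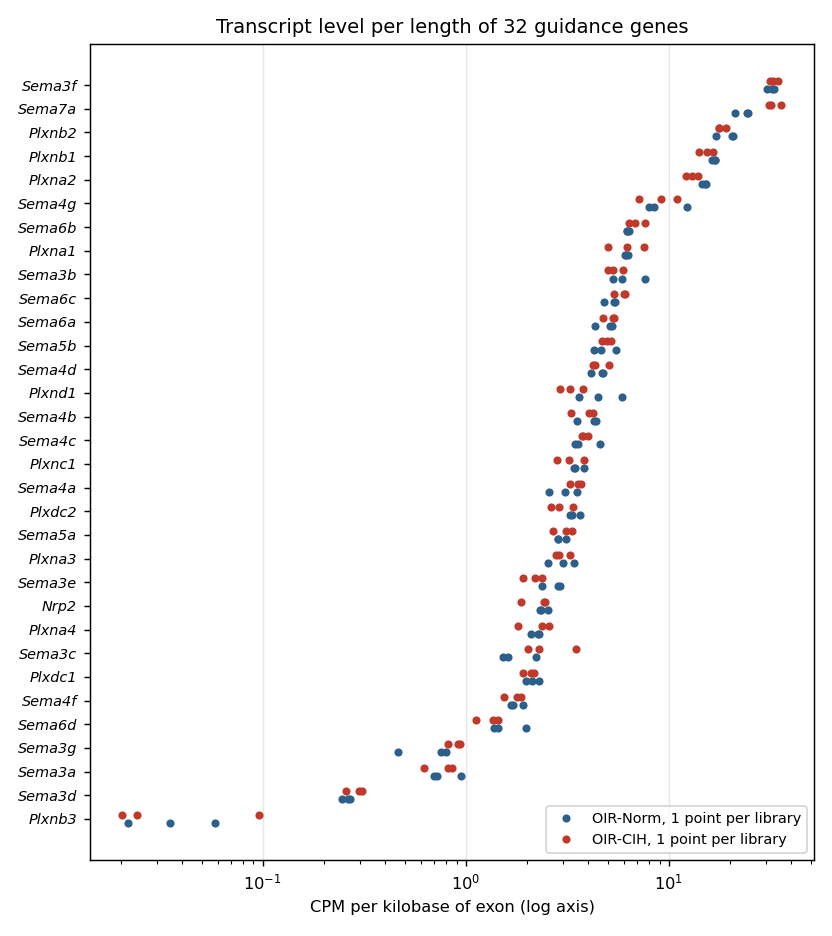
CPM per kilobase of exon (horizontal log axis) of the 32 genes in each library, OIR-Norm in blue and OIR-CIH in red, ordered by the mean over all 6 libraries. Levels run from 0.0426 for Plxnb3 to 32.3 for Sema3f, and the colours mix for most genes but separate for Sema7a, Sema3g, Sema6b and Plxna2.

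In the summed CPM per kilobase of the 20 semaphorins, Sema7a took 25.0 ± 0.851% in OIR-CIH and 19.4 ± 0.515% in OIR-Norm (SD, n = 3 each). The 7 class 3 genes took 34.1 ± 0.287% and 37.0 ± 1.68%. The sum includes Sema7a, so this share can fall without lower class 3 levels. By log2 fold change 4 of these 7 genes were higher in OIR-CIH and 3 lower, and the middle value was 0.04. Of the summed plexins, group A took 37.8% and 37.3% and group B 52.0% and 51.2%, so the receptors kept nearly the same proportions. Plxnd1 took 5.12 ± 0.348% in OIR-CIH and 6.53 ± 1.28% in OIR-Norm, with overlapping libraries.

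The pathway around these genes was followed in 51 listed partners, of which 50 were tested (Timd2 had no read in any library). By both criteria 0 were called by edgeR, DESeq2 and limma, and 10 of the 50 had an unadjusted p under 0.05 from edgeR, 4 higher and 6 lower, against 13.2% of all genes. The median log2 fold change was -0.05, with 17 above 0 and 33 below. Of 15 co-receptors tested 3 were above 0, of 18 GTPase switches and exchange factors 4, and of 17 cytoskeletal effectors 10. Over all genes tested, 49.48% were above 0. The lowest p belonged to Tyrobp, an adaptor of myeloid receptors that can join plexin A1, at 3.30, 4.51 and 4.08 CPM in OIR-CIH and 6.30, 6.03 and 5.25 CPM in OIR-Norm. Its groups did not overlap, and the log2 fold change was -0.56 (95% interval -0.91 to -0.21, adjusted p = 0.212 from edgeR). The next were Dpysl4 (0.21), a collapsin response mediator, Cdk5 (0.19), a kinase of these mediators, Rhod (-0.54), a small GTPase, and Itgb1 (-0.29), the beta 1 integrin chain bound by Sema7a, with adjusted p of 0.277, 0.284, 0.285 and 0.297. Without OIR-Norm replicate 2 Itgb1 was at -0.15 with an unadjusted p of 0.112.

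Other guidance systems were read in the same way. Of 46 netrin, slit, ephrin and repulsive guidance genes, ligands and receptors together, 0 were called, against 0.315% of all genes. An unadjusted p under 0.05 from edgeR was found for 3 or 6.52%, 1 higher and 2 lower, against 13.2% of all genes. Their median log2 fold change was -0.02, with 21 above 0 and 25 below. Slit3, a ligand of Robo receptors, was at 0.628, 0.485 and 0.529 CPM in OIR-CIH and 1.10, 1.23 and 1.35 CPM in OIR-Norm. The groups did not overlap, and the log2 fold change of -1.17 had an adjusted p of 0.135 from edgeR, on 14 to 43 reads per library. Efnb3, an ephrin ligand, and Epha7, an ephrin receptor, differed by 0.24 and -0.19 (adjusted p of 0.308 and 0.355).

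Some marker sums also differed between the groups. Of 13 marker lists, 4 had summed CPM that did not overlap between the groups. The 12 microglial markers summed to 85.7 to 96.4 CPM in OIR-CIH and 107 to 126 CPM in OIR-Norm, 11 of them lower. Of the 12, 6 had an unadjusted p under 0.05 from edgeR, against 13.2% of all genes. Mpeg1 was the 1 called (log2 fold change -0.72, adjusted p = 0.0131 from edgeR), against 0.315% of all genes. The 4 astrocyte markers summed to 69.1 to 72.4 and 74.7 to 94.8 CPM, and the 4 horizontal cell markers to 132 to 140 and 121 to 131 CPM. The 7 amacrine markers summed to 589 to 745 and 552 to 587 CPM, with 6 higher. Of the 7, 1 had an unadjusted p under 0.05 from edgeR, against 13.2% of all genes. Taken singly, 0 of these 7 had groups that did not overlap, against 18.4% of all genes. The lowest OIR-CIH and highest OIR-Norm sums were close, 589.3 and 587.1 CPM for amacrine and 131.9 and 131.3 CPM for horizontal cell markers. These gaps are smaller than the spread of the TMM factors (0.9694 to 1.031), so whether these 2 sums are apart depends on the scaling. Tyrobp was lower in OIR-CIH, as were the microglial markers, and Sema7a was higher, as were the amacrine and horizontal cell sums. Values that separate the groups share this pattern by construction, so it shows no link beyond the group difference. The part of these cell types in the results was not tested.

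OIR-Norm replicate 2 stood apart in vascular and lens markers. Its 10 endothelial markers summed to 136 CPM, against 58.3 to 83.8 in the other OIR-Norm libraries and 60.8 to 91.0 in OIR-CIH, with 8 of 10 lower in the OIR-CIH mean and 0 at an unadjusted p under 0.05. Its 6 pericyte markers summed to 207 CPM, against 89.1 to 133 in the other OIR-Norm libraries and 77.4 to 122 in OIR-CIH. In the OIR-CIH mean 6 of 6 were lower, 2 with an unadjusted p under 0.05 from edgeR. Its 5 lens markers summed to 246 CPM, against 10.3 to 41.9 in the 5 other libraries. All 5 were lower in the OIR-CIH mean, 3 with an unadjusted p under 0.05 from edgeR. Over all genes, 13.2% had an unadjusted p under 0.05 from edgeR. Within each group the order of the libraries in Plxnd1 was that of the endothelial sum, from 21.3 CPM beside 60.8 to 27.5 beside 91.0 in OIR-CIH and from 26.4 beside 58.3 to 42.7 beside 136 in OIR-Norm. Without OIR-Norm replicate 2 the ratio of the endothelial sums, OIR-CIH over OIR-Norm, went from 0.812 to 1.06, and the Plxnd1 log2 fold change was the -0.28 given above. The part of the vascular markers in the Plxnd1 result was not tested beyond this.

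**Figure D4:**
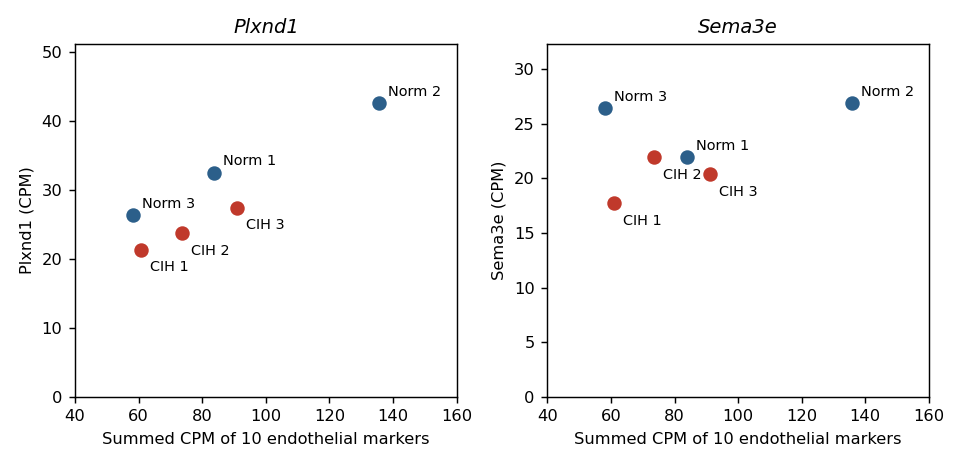
CPM of Plxnd1 (left, vertical axis) and Sema3e (right) against the summed CPM of 10 endothelial markers (horizontal axis) in each library, OIR-Norm in blue and OIR-CIH in red. OIR-Norm replicate 2 has the highest endothelial sum, 136 CPM, and the highest Plxnd1, 42.7 CPM, while Sema3e is nearly as high in OIR-Norm replicate 3 (26.5 CPM), where the endothelial sum is the lowest at 58.3 CPM.

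The sums of the other marker lists overlapped between the groups. Rod markers summed to 48760 to 56540 CPM in OIR-CIH and 42880 to 56250 in OIR-Norm, with 6 of 6 higher in the mean, and cone markers to 1292 to 1477 and 1198 to 1507. Bipolar cell markers summed to 1164 to 1215 and 1145 to 1355, ganglion cell markers to 854 to 1099 and 950 to 1049, and Muller glia markers to 4246 to 5178 and 4229 to 4772 CPM. Pigment epithelium markers summed to 173 to 251 and 113 to 212 CPM. By single markers, an unadjusted p under 0.05 from edgeR was found for 2 of 6 rod and 3 of 6 pigment epithelium markers, all higher. It was found for 1 of 6 cone and 1 of 6 bipolar markers, both lower, and for 0 of 8 ganglion cell markers. Of 8 Muller glia markers 1 was higher and 1 lower by this p, against 13.2% of all genes. The groups did not overlap for 3 of 6 rod markers, 3 higher and 0 lower, against 18.4% of all genes. No marker of any list was at 0 in any library. This holds for the neuronal and glial markers and also for those of lens and pigment epithelium. It therefore does not test the retinal identity given by the labels.

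The 5 genes with an unadjusted p under 0.05 kept their sign in every fit that left out a library. They were chosen by their p over the same 6 libraries, which favours a kept sign. Sema7a ranged from 0.43 to 0.53, Plxnd1 from -0.63 to -0.28, Sema3e from -0.42 to -0.25, Sema3c from 0.27 to 0.71 and Plxna2 from -0.25 to -0.16. Among all 32 genes, 16 kept their sign in all 6 such fits and 16 changed it in at least 1.

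**Figure D5:**
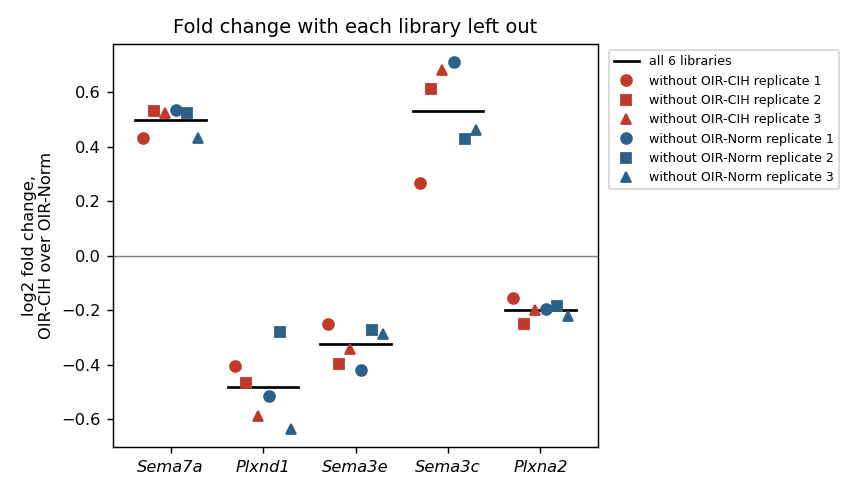
Log2 fold change (vertical axis, OIR-CIH over OIR-Norm) of the 5 genes with an unadjusted p under 0.05, with all 6 libraries (black line) and with each library left out (points, red for an OIR-CIH and blue for an OIR-Norm library). No point crosses 0, and the points farthest from their lines are Sema3c without OIR-CIH replicate 1 (0.27) and Plxnd1 without OIR-Norm replicate 2 (-0.28).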

How the data were processed

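RNA of 6 retinal libraries was prepared from 250 ng total RNA with a stranded poly(A) kit. The authors aligned reads with STAR 2.7.9a and deposited raw counts per gene, without normalization. The submitters' processing notes name GRCm38 and the paper Ensembl 105, and which strand column was kept is not stated in the sources used here, which bears on 8 of the 32 genes that have a gene on the opposite strand (Sema4c, Nrp2, Sema5a, Sema6d, Sema3e, Plxna4, Plxna1 and Plxnb1). Total counts were 26289905 to 38010151 per library.

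From these counts, genes with a total of at least 10 were tested with edgeR 4.0.16 (quasi-likelihood test, TMM scaling, R 4.3.3) with Benjamini-Hochberg adjustment. A gene was called when its adjusted p was under 0.05 and its log2 fold change beyond 0.5 in size. Single genes were also tested by exact permutation of the mean log2(CPM + 0.5). Alternatives were DESeq2 1.42.0, limma 3.58.1 on log2(CPM + 0.5), median-of-ratios scaling, other filters, no fold minimum, a block on the replicate number and each library left out. The comparison of OIR-CIH with OIR-Norm was also run on simulated data. Of 100 changes of 0.5 in log2 put into these data, 51 had an adjusted p under 0.05, and of 100 changes of 1 in log2, 90 did. In the same data 13 unchanged genes were called.

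Symbols and exon lengths came from GENCODE M21 by gene identifier (32158 of 32285 matched, 127 not), and sequences from RefSeq on GRCm38.p6. Replicates of each group differed by more than counting noise. Genes given with every library were those with an unadjusted p under 0.05 and the 5 highest per kilobase, and the others stand as examples of their group. At most 5 partners and 3 other guidance genes with the lowest p were named, and Nrp1 always. Promoters were those of the 3 lowest p. The genes, the lists of partners, other guidance families and cell type markers, and the tests were chosen with earlier results of these data known. Mpeg1 was named after its value was seen.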

Additional observations from a re-analysis of the deposited data

How the results depend on the processing

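The count of genes called by both criteria was 63 (20 higher, 43 lower). It was 135 with DESeq2 (34 higher, 101 lower) and 213 with the filter lowered to a total of 1 count (60 higher, 153 lower, 24439 tested), both including all 63, and 35 to 104 with single libraries left out, 35 without OIR-CIH replicate 1 and 104 without OIR-Norm replicate 3. Of the 32 guidance genes 0 were called, but 1 with that lower filter, 1 with no minimum fold change, and 0 to 1 with single libraries left out, in each case Sema7a, whose fold lay at the minimum. By adjusted p alone 1 was called, 2 with the lower filter (Sema7a and Plxnd1, log2 fold change -0.48, adjusted p = 0.0395 from edgeR, against 0.0675 with DESeq2) and 0 to 1 with single libraries left out. The adjusted p of Sema7a lay between 4.29e-05 and 0.0235 over the 6 fits with other settings and all libraries. Genes with groups apart numbered 4, and 2 on plain library totals. The count of partners called was 0 in each setting, and the median over the 32 genes ran from -0.084 to 0.038 without single libraries. The causes of these shifts were not tested.

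Whether the replicate numbers pair the libraries was not settled. Same-numbered deviations correlated at 0.162, 0.143 and -0.238 over 14800 genes, and 1 of 3 OIR-CIH libraries correlated best with its own number. With 3 libraries a group, this check cannot exclude a pairing. With the replicate block 84 genes were called, 60 of them also without it, and 1 of the 32 guidance genes, Sema7a (log2 fold change 0.50, adjusted p = 0.0141 from edgeR).

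Sema4c changed sign in limma (0.000269). With single libraries left out, log2 fold changes changed sign for Sema4c (-0.089 to 0.13), Nrp2 (-0.17 to 0.013), Sema3a (-0.13 to 0.11), Plxna4 (-0.083 to 0.16), Sema4f (-0.086 to 0.050), Plxna1 (-0.14 to 0.16), Sema4b (-0.17 to 0.026), Sema3f (-0.00026 to 0.068), Plxdc1 (-0.10 to 0.0046), Sema4d (-0.085 to 0.059), Sema5a (-0.022 to 0.12), Sema5b (-0.029 to 0.15), Sema6a (-0.012 to 0.13), Sema4g (-0.23 to 0.14), Plxnb3 (-0.79 to 0.68) and Plxna3 (-0.12 to 0.099). Depth and 3 libraries a group limit what can be seen: the 95% interval stayed within 0.5 of 0 for 24 of the 32 genes and reached past it for the others.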
